A study of Pyrus pyrifolia with 6 samples.

Results

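The regions described here are places in the pear genome where methylation of CG or of CHG cytosines differed between bagged and unbagged fruit skin. They lie on a differing stretch of CHH methylation (H stands for A, C or T). The regions have no listed region of the remaining context at the same bases, though levels of that context there are unknown. They were picked by position alone from the authors' deposited list of differentially methylated regions: a CG region on a chromosome that shares at least 1 bp with a CHH region and none with a CHG region, or a CHG region that shares at least 1 bp with a CHH region and none with a CG region. The rule gave 332 regions of the 53954 listed, 170 in CG and 162 in CHG context, in 333 pairs with 331 CHH regions. The members are 8.68% of the 1958 CG regions and 9.07% of the 1787 CHG regions on the 17 chromosomes.

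The skin came from fruit of Pyrus pyrifolia 'Cuiguan', a pear whose surface turns partly brown and corky (semi-russet), on 7-year-old trees of an orchard, and was taken at 115 days after full bloom. In the bagged group the fruitlets wore white paper bags of a single layer from 20 days and yellow-white bags of a double layer from 40 days after bloom, while the unbagged controls were left uncovered. DNA of 3 bagged and 3 unbagged samples was treated with bisulfite, which turns unmethylated but not methylated cytosines into uracil, read as thymine after amplification, and sequenced across the genome. The study set the groups against each other to follow russeting of the skin. Whole skin holds several cell layers, so a level between 0 and 100% can be a mixture of cells and changes in methylation and in cell makeup cannot be told apart.

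In plants each context has its own upkeep, worked out mostly in Arabidopsis. CG methylation is copied onto new DNA strands by the methyltransferase MET1. CHG methylation is kept by the chromomethylase CMT3, which reads a mark on histones, and CHH methylation has to be laid down anew after each replication, either by DRM2, guided by small RNAs, or by CMT2. DNA glycosylases such as ROS1 remove methylated cytosines of any context.

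Every level below is the authors' mean for a group, with the replicates combined by them. It has no spread between replicates and its read depth is unknown, so no difference here was tested against replicate error. All listed regions had been called different by the authors, so a member's own difference is a description. Directions are bagged minus unbagged, in percentage points, and a gain or loss means only a higher or lower level in bagged than in unbagged skin. Intervals on shares are 95% exact binomial intervals over pairs, which cover counting error only and treat pairs as independent.

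The main pattern was that a CG or CHG region higher in bagged skin lay on a higher CHH region almost without exception, whereas a lower CG region lay on a lower or on a higher CHH region in similar numbers. Of the 170 CG members 90 were higher and 80 lower in bagged skin, which is 52.9% higher against 38.4% (and 47.1% lower against 61.6%) of all CG regions on chromosomes. The CHH partner was higher at 89 of the 90 higher CG regions (98.9%, interval 93.96 to 99.97). At the 80 lower CG regions it was lower in 45 (56.3%, 44.7 to 67.3) and higher in 35. Together 134 of the 170 CG and CHH pairs had the same direction (78.8%, 71.9 to 84.7) and 36 had opposite directions.

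In CHG context most members were higher and most lower members lay on a lower CHH region. Of the 162 CHG members 118 were higher (72.8%) and 44 lower (27.2%), against 50.3% higher and 49.7% lower of all CHG regions on chromosomes. Their CHH partner was higher in 117 of these 118 (99.2%, interval 95.4 to 99.98). For the 45 pairs with a lower CHG region it was lower in 35 (77.8%, 62.9 to 88.8) and higher in 10. The same direction was thus shared by 152 of the 163 CHG and CHH pairs (93.3%, 88.2 to 96.6), with 11 opposite.

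These counts have to be read against the CHH list itself, of which 90.3% was higher and 9.71% lower in bagged skin on the chromosomes. A higher partner is what most CHH regions of the list would have given. Still, the partners of higher members were lower in only 1.11% of CG and 0.847% of CHG pairs. Both intervals of their higher shares lie above 90.3%. Of the partners of lower members, 56.3% for CG and 77.8% for CHG were lower, far above 9.71%. Seen from the CHH side, 45 of the 46 lower partners of CG members (97.8%) lay on a lower CG region, and 35 of the 36 lower partners of CHG members (97.2%) on a lower CHG region. Of the 124 higher CHH partners of CG members, 89 (71.8%) had a higher CG region. Of all 47 opposite pairs, 45 combined a lower CG or CHG region with a higher CHH region and 2 were the reverse.

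**Figure D1:**
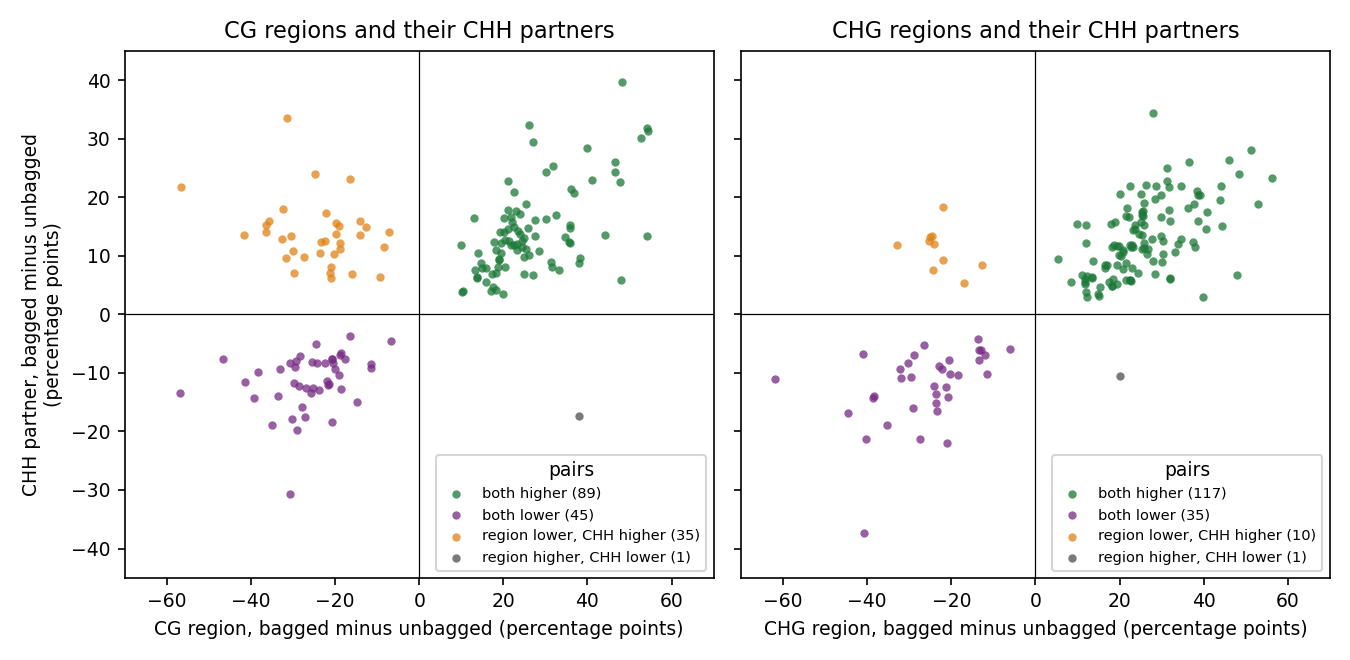
Difference of each member region (x axis) against that of its CHH partner (y axis), both in percentage points as bagged minus unbagged, for 170 CG pairs (left) and 163 CHG pairs (right). Each point is 1 pair, and the quadrant of a higher member with a lower partner holds 1 point in each panel.

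Where both contexts were higher, unbagged skin carried little CHH methylation and a modest level in the other context. In the 89 such CG regions the median was 26.7% unbagged and 59.0% bagged, and in their CHH partners 8.57% and 23.0%. The 117 CHG regions had 24.3% and 56.0%, and their partners 7.83% and 21.2%. All higher regions on chromosomes had medians of 27.2% and 55.4% in CG and 26.7% and 55.3% in CHG context. The levels of the members are thus not particular to these pairs. All higher CHH regions had 11.7% and 24.5%, slightly above the partners. In unbagged skin 27 of the 89 CHH partners in CG pairs and 41 of the 117 in CHG pairs were under 5%. Among the members themselves, 30 of the 89 CG and 53 of the 117 CHG regions were under 20% in unbagged skin, and 29 CG and 32 CHG regions were at 70% or more in bagged skin. Shares within these limits over all higher regions were not worked out, so the counts only describe the pairs. The sizes of the differences went together most clearly across these pairs. Pearson's r between the absolute differences was 0.60 over 89 CG and 0.57 over 117 CHG pairs (Spearman's rho 0.56 and 0.59). Where both contexts were lower, r was 0.29 over 45 CG and 0.42 over 35 CHG pairs (rho 0.39 and 0.49). For a lower member with a higher CHH partner, r was 0.28 over 35 CG and 0.40 over 10 CHG pairs (rho 0.21 and 0.41). All of these are descriptions, since both values of a pair come from the same libraries and partly the same reads.

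The strongest pair of this kind in CG context, ranked by the smaller of the paired differences, lay on chromosome 10 from 23655018 to 23655413. Its 24 CG cytosines were at 19.3% in unbagged and 67.5% in bagged skin. The CHH region from 23655042 to 23655323 lies wholly inside it, and its 42 cytosines were at 7.52% and 47.2%. This is also the longest stretch shared by a CG pair, 282 bp. CHH levels near 50% are high for this table, in which the higher CHH regions on chromosomes had a median of 24.5% in bagged skin.

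In 3 of the other 4 leading pairs the layout was the reverse, with a short CG region inside a longer CHH region. On chromosome 7 from 6449068 to 6449160, 13 CG cytosines were at 27.2% unbagged and 81.4% bagged, within a CHH region of 212 bp at 9.07% and 40.9%. On chromosome 5 from 14685510 to 14685593, where the largest CG gain of the set was found, 4 cytosines were at 12.9% and 67.3%. The surrounding CHH region is 407 bp long, and its 87 cytosines were at 2.96% and 34.2%. Another short region on chromosome 8 from 18641256 to 18641319 had 25.5% and 78.3% in CG context and 7.32% and 37.4% in CHH context. The last of the 5, on chromosome 8 from 1956892 to 1956989, had about the same unbagged level in both contexts, 18.9% for CG and 18.5% for CHH, and bagged levels of 58.8% and 46.9%.

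Among the CHG regions higher together with CHH, the leading pair lay on chromosome 17 from 262134 to 262192. Its 6 CHG cytosines were at 16.3% in unbagged and 67.5% in bagged skin, inside a CHH region of 332 bp at 23.4% and 51.5%. Here the CHH level in unbagged skin was above the CHG level. On chromosome 15 from 9145968 to 9146138 the CHH difference was the larger one: 23 CHG cytosines differed by 27.9 points (51.7% and 79.6%), and the 25 CHH cytosines of the region inside by 34.3 points (18.1% and 52.4%).

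A further 3 sites had unbagged CHG levels near the class median of 24.3%. The CHG region on chromosome 6 from 14701251 to 14701314 was at 19.8% and 65.9%, on CHH levels of 3.77% and 30.1%. On chromosome 1 from 19704919 to 19705001 the CHG levels were 20.4% and 56.9% and the CHH levels 7.51% and 33.5%. On chromosome 5 from 29629995 to 29630161 they were 27.6% and 58.8%, and 18.9% and 43.8%. The largest CHG gain of the set, on chromosome 1 from 18952661 to 18952718, was seen over 7 cytosines at 12.5% unbagged and 68.8% bagged, with CHH levels of 11.3% and 34.5%.

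Where both contexts were lower, the members were at middle levels in unbagged and at low levels in bagged skin. The 45 CG regions had medians of 42.4% unbagged and 17.5% bagged, and their CHH partners 17.1% and 7.51%. The 35 CHG pairs had 48.8% and 15.2%, with 19.5% and 7.28% in CHH context. Across all lower regions on chromosomes the medians were 63.7% and 34.2% in CG and 60.2% and 29.6% in CHG context. All lower CHH regions had 25.6% and 9.48%. In bagged skin 28 of the 45 CG and 21 of the 35 CHG regions were under 20%, and 13 and 9 of their CHH partners were under 5%. Shares within these limits over all lower regions were not worked out, so the counts only describe the pairs. The partners had a median length of 120 bp in CG and 109 bp in CHG pairs, against 121 bp for all CHH regions. Where both contexts were higher, the partners were longer, with medians of 172 bp and 174 bp. Lengths over all lower or all higher CHH regions were not worked out.

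The leading joint loss in CG context lay on chromosome 2 from 6074293 to 6074381, with 4 CG cytosines at 77.2% in unbagged and 46.5% in bagged skin. The CHH region around it, 239 bp with 67 cytosines, was at 54.1% and 23.3%, so that both contexts differed by -30.7 points. On chromosome 14 from 24684784 to 24684890 CG was at 69.6% and 40.5% and CHH, at the highest unbagged level of any CHH partner of a CG member, at 62.9% and 43.0%. The region on chromosome 16 from 14696478 to 14696529 had less CG than CHH methylation in both groups, 39.3% and 18.5% against 54.3% and 35.9%. This order was rare: the CHH level was above the CG level in 9 of 170 pairs in unbagged and 14 in bagged skin.

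The remaining named losses of both contexts kept the usual order. On chromosome 2 from 19670385 to 19670485 CG was at 58.8% and 23.8% and CHH at 32.8% and 13.9%. On chromosome 9 from 7864280 to 7864436 the CG levels were 49.2% and 18.97%, and the CHH levels 35.7% and 17.8%. The largest CG loss of the set, on chromosome 5 from 19933652 to 19933740, had 82.8% unbagged and 26.0% bagged, and its CHH partner 15.4% and 2.03%. At the other end, the CG member with the smallest difference, on chromosome 15 from 4203023 to 4203122, was at 10.4% and 3.57% over 24 cytosines, with CHH at 5.78% and 1.19%.

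In CHG context the strongest joint loss was on chromosome 16 from 27286714 to 27286897. Its 18 CHG cytosines were at 61.9% in unbagged and 21.04% in bagged skin, and the 26 cytosines of the CHH region from 27286786 to 27286904 at 42.6% and 5.34%. In bagged skin CHG methylation was thus well above CHH methylation. On chromosome 5 from 14206411 to 14206473 both contexts were low in bagged skin, CHG at 31.2% and 3.59% and CHH at 27.8% and 6.48%. On chromosome 14 from 22389218 to 22389320 CHG was at 49.04% and 8.73%, and CHH at 34.2% and 12.9%.

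A heavily methylated member of this group stood on chromosome 1 from 18780227 to 18780278, where CHG was at 85.0% and 64.1% and CHH at 43.4% and 21.5%, differences of similar size. On chromosome 11 from 9310008 to 9310167 CHG was at 55.3% and 19.98%, and CHH at 35.7% and 16.7%. The largest CHG loss of the set, on chromosome 8 from 19509048 to 19509138, had 72.1% unbagged and 10.1% bagged, on CHH levels of 13.6% and 2.52%. The smallest CHG difference, 5.40 points on chromosome 2 from 5557927 to 5557988, belonged to a pair that was higher in both contexts, where CHG was at 1.74% and 7.14% and CHH at 14.9% and 24.3%.

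The 35 pairs with a lower CG and a higher CHH region had higher CG levels than the joint losses. Their CG regions had medians of 78.4% in unbagged (quartiles 64.9 and 91.3) and 50.02% in bagged skin. The CG regions that were lower together with CHH had 42.4% (quartiles 34.8 and 56.9) and 17.5%, so the quartiles of the unbagged levels did not overlap. All lower CG regions on chromosomes had an unbagged median of 63.7%, between both kinds of pair and further from the joint losses. None of the 35 was under 20% in bagged skin, but the share under 20% over all lower CG regions was not worked out. The CHH partners were at 14.7% and 28.4%, and in unbagged skin these levels overlapped widely with the 17.1% of the partners that were lower. The size of the CG loss was similar, with medians of -22.2 and -25.3 points.

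**Figure D2:**
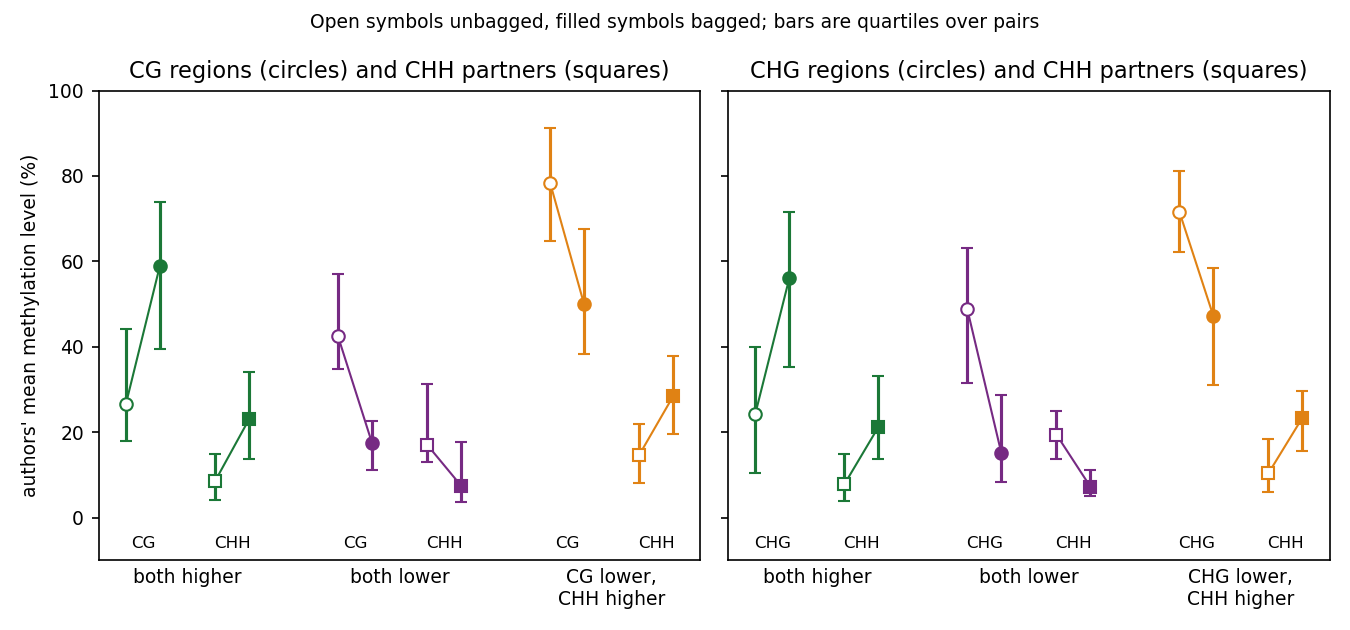
Methylation level in percent of member regions (circles) and their CHH partners (squares) in unbagged (open) and bagged skin (filled), as medians over pairs with quartiles as bars, for pairs with both contexts higher, both lower, or the member lower and CHH higher. CG regions of the last kind have an unbagged median of 78.4%, against 42.4% where both were lower, and the CHG regions at 71.6% against 48.8%.

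Sorted by unbagged level, the partner of a lower CG region changed from lower to higher. All 18 lower CG regions under 40% in unbagged skin lay on a lower CHH region (interval 81.5 to 100%), as did 18 of 21 between 40 and 60%. Between 60 and 80% it was 7 of 22 (31.8%, 13.9 to 54.9), and at 80% or more 2 of 19 (10.5%, 1.30 to 33.1), close to the 9.71% of all CHH regions. The limits of these classes were chosen after the values were seen. Counted over all lower CG regions without a CHG region on them, 7.41% of the 243 under 40% in unbagged skin lay on a lower and 0 on a higher CHH region. Of the 292 at 80% or more, 0.685% lay on a lower and 5.82% on a higher one.

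The lower CHG regions were sorted in the same way. Of those under 40%, 14 of 16 had a lower CHH partner, and of those from 40 to 60%, all 10. From 60 to 80% it was 6 of 11 (54.5%, 23.4 to 83.3) and at 80% or more 5 of 8 (62.5%, 24.5 to 91.5). The intervals of both upper classes lie above 9.71%. Whether CG and CHG differ in this respect was not tested, and the intervals of their upper classes overlap.

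**Figure D3:**
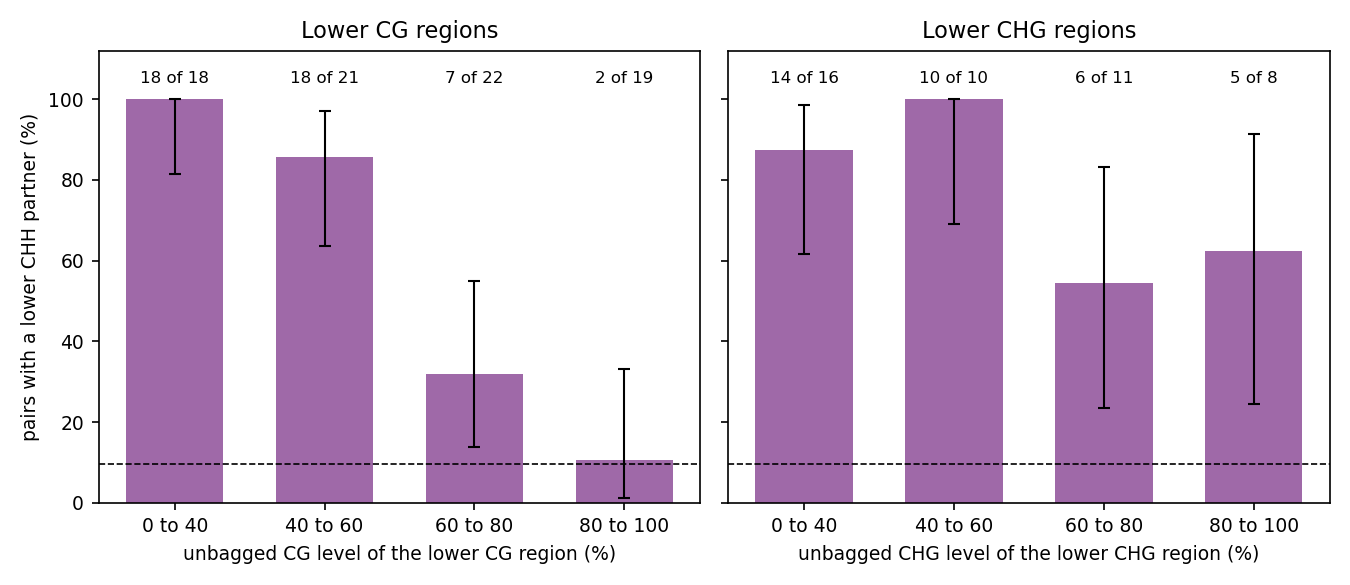
Share in percent of pairs with a lower CHH partner (y axis) among lower CG regions (left) and lower CHG regions (right), by the level of the region in unbagged skin (x axis, percent). Bars carry 95% exact binomial intervals and the count, and the dashed line is the 9.71% of all CHH regions on chromosomes that were lower; CG goes from 18 of 18 to 2 of 19.

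The leading opposite pair in CG context, on chromosome 12 from 14319679 to 14319765, had nearly mirrored differences. Its 16 CG cytosines were at 64.5% in unbagged and 33.0% in bagged skin (-31.5 points), and the 34 CHH cytosines of the region from 14319568 to 14319756 at 19.96% and 53.5% (33.5 points). In bagged skin the CHH level was therefore the higher of the pair, over 78 shared bp. The same crossing was seen on chromosome 6 from 18584417 to 18584510, where CG was at 91.0% and 34.5% over 4 cytosines and CHH at 28.9% and 50.6%, but these regions share only 26 bp.

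The remaining 3 named pairs of this kind had CHH levels that stayed under the CG level in bagged skin as well. On chromosome 9 from 13687235 to 13687285, 25 CG cytosines packed into 51 bp were at 74.9% and 50.02%, with 15 bp shared with a CHH region at 16.9% and 40.8%. On chromosome 6 from 17901294 to 17901394 CG was at 63.2% and 30.9%, wholly inside a CHH region at 4.83% and 22.9%. On chromosome 10 from 13497836 to 13497933 CG was at 59.4% and 37.2%, inside a CHH region of 551 bp with 146 cytosines at 15.8% and 33.1%.

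Of the 11 opposite pairs in CHG context, 10 had a lower CHG and a higher CHH region. Over these 10 pairs, which rest on 9 CHG regions because the one on chromosome 4 has a pair of partners, the median CHG level was 71.6% unbagged and 47.2% bagged, with a range of 24.7 to 89.2% in unbagged skin. Chromosome 4 held the most extended one: a CHG region of 428 bp from 20872548 to 20872975 with only 6 cytosines, at 81.8% and 59.8%. It is the single member with more than 1 CHH partner. The first, from 20872604 to 20872905, lies wholly inside it and its 108 cytosines were at 39.5% and 57.8%, so CHG and CHH met at a similar level in bagged skin. The other, from 20872960 to 20873024, shares 16 bp with it and was at 15.9% and 25.3%. The 302 bp shared with the first are the longest overlap of any CHG pair.

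The other 4 named pairs of a lower CHG and a higher CHH region had CHG levels of 66.7 to 79.6% in unbagged skin, while 2 pairs of this class that were not named by rank were at 27.6 and 24.7%. The one on chromosome 11 from 1576676 to 1576739 was at 75.3% and 50.7%, with 44 bp on a CHH region at 10.6% and 23.99%. A region on chromosome 3 from 15203611 to 15203672 was at 79.6% and 54.5% and shares only 10 bp with its partner, at 27.4% and 40.6%. The region of 135 bp on chromosome 2 from 1615723 to 1615857 was at 66.7% and 41.5%, with 22 bp on CHH levels of 10.3% and 22.8%. At chromosome 1 from 20132692 to 20132744 CHG was at 67.9% and 43.7% and CHH at 5.46% and 17.5%, over 45 shared bp.

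The reverse combination, a higher member on a lower CHH region, occurred at 1 place per context. On chromosome 11 from 29968430 to 29968525, 6 CG cytosines were at 54.6% and 92.7%, and the CHH region from 29968472 to 29968584 at 44.95% and 27.6%. On chromosome 3 from 18061184 to 18061359, 14 CHG cytosines were at 39.4% and 59.5%, and the CHH region from 18061218 to 18061490 at 18.3% and 7.70%. The CHG pair shares 142 bp and the CG pair 54 bp, and in both pairs each region reaches past the other at 1 end.

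How much of the sequence was shared went with the direction. The CG pairs that were higher in both contexts shared a median of 73 bp, 86.4% of the CG region, and those lower in both 74 bp or 73.1%. Opposite pairs with a lower CG region shared 48 bp or 50.8%. Of the 59 CG regions lying wholly inside their CHH partner, 54 had its direction (91.5%, interval 81.3 to 97.2), and of the 96 that overlap it at an end only, 67 (69.8%, 59.6 to 78.7). The 59 comprised 41 pairs higher in both contexts, 13 lower in both and 5 with a lower CG and a higher CHH region. The 96 comprised 39, 28 and 28 of these kinds and 1 of the reverse. Lower CG regions, which agreed less often, thus made up more of the 96. Unbagged level, overlap and the direction of the member all moved with the class of a pair, and their separate parts were not tested. Among lower CG regions with at least 50 bp shared, those with a lower CHH partner still had a median unbagged level of 43.1% and those with a higher partner 69.1%.

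The direction of the CHH region was then set out by how many bases it shares with a lower member. Of the lower CG regions with 50 bp or more in common with a CHH region, 34 of 49 had a lower partner (69.4%, interval 54.6 to 81.7), and with 21 to 49 bp 10 of 25 (40.0%, 21.1 to 61.3). With 1 to 20 bp it was 1 of 6. CG regions that overlap no CHH or CHG region were then taken with CHH regions next to them. For lower CG regions, 6 of 45 CHH regions at 0 to 100 bp were lower (13.3%, 5.05 to 26.8), 9 of 154 beyond that up to 500 bp (5.84%, 2.71 to 10.8), and 39 of 397 from there to 2000 bp (9.82%, 7.08 to 13.2). All 3 intervals include the 9.71% of all CHH regions.

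For CHG regions the values were as follows. With 50 bp or more shared, 26 of 28 lower CHG regions had a lower CHH partner (92.9%, interval 76.5 to 99.1), with 21 to 49 bp 9 of 14 (64.3%), and with 1 to 20 bp 0 of 3. All 33 CHH regions within 100 bp of a lower CHG region, but sharing no base with it, were higher (0% lower, 0 to 10.6). For higher CHG regions 1 of 98 overlapping CHH regions was lower with 50 bp or more shared, and 27 of 202 (13.4%, 8.997 to 18.8) at over 500 and up to 2000 bp. At the limit of the rule itself, 4 of 9 CG pairs and 4 of 7 CHG pairs with 1 to 20 bp shared had the same direction. Among these, all 3 higher CG and all 4 higher CHG regions had a higher partner. Just outside the rule, at 0 to 20 bp apart, the numbers were 3 of 11 and 4 of 8, and 9 and 4 of these pairs had a lower region. The mix of higher and lower regions differed between these counts, and its part in them was not tested.

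**Figure D4:**
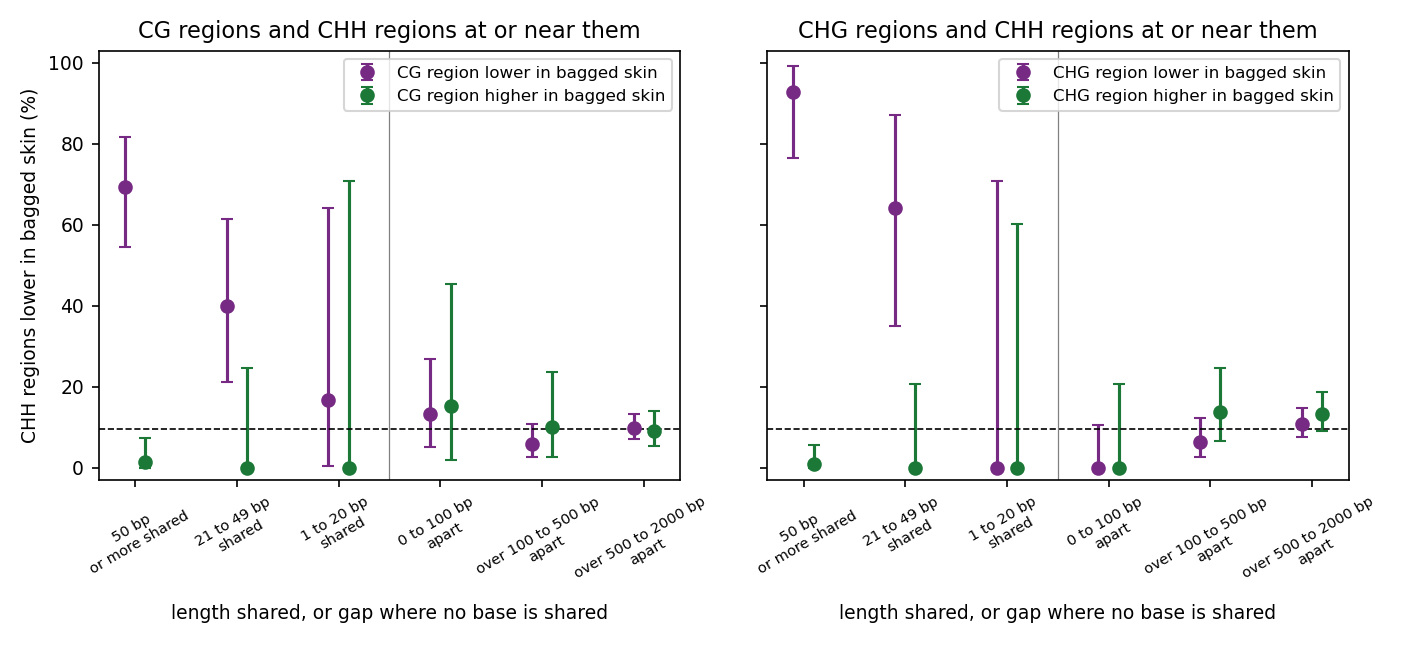
Share in percent of CHH regions that were lower in bagged skin (y axis), by the length they share with a CG (left) or CHG region (right) or by their gap to one that overlaps no other context (x axis, bp; the grey line parts overlap from gap), for lower and higher regions. Points carry 95% exact binomial intervals and the dashed line is the 9.71% of all CHH regions; lower CHG regions go from 26 of 28 at 50 bp or more to 0 of 33 at 0 to 100 bp apart.

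The other CHH regions around a member were mostly higher, as in the whole CHH list, of which 9.71% was lower. Within 2000 bp, CHH regions other than the partner were lower in 3 of 20 cases around CG regions that were lower with their partner, and in 3 of 21 cases around CHG regions of that kind. Around the CG regions higher with their partner it was 5 of 57, and for CHG 10 of 70. From 2000 to 10000 bp, 12 of 62 (19.4%) were lower around the joint CG losses and 7 of 55 (12.7%) around the joint CHG losses. For members higher with their partner it was 14 of 121 (11.6%) in CG and 22 of 190 (11.6%) in CHG context. Whether any of these shares differ from the list was not tested. Few regions of the same or of the remaining context lay within 2000 bp of a member. The direction of the member was shared by 7 of 8 CG and 11 of 11 CHG regions near a CG member, and by 8 of 9 CHG and 12 of 13 CG regions near a CHG member. Such shares over all CG and CHG regions were not worked out, so these counts only describe the members. A CG and a CHG member near each other count from both sides.

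At 2 places a CHH region bridged a CG and a CHG member that share no base. On chromosome 5 the CHH region from 27072487 to 27072615, at 22.1% and 37.4%, holds the CHG region from 27072521 to 27072587 (29.9% and 53.7%) and touches the CG region from 27072602 to 27072724 (47.1% and 83.1%). On chromosome 15 the CHH region from 24797185 to 24797313, at 14.9% and 33.7%, overlaps the CG region from 24797172 to 24797231 (57.3% and 82.6%) and the CHG region from 24797257 to 24797315 (35.8% and 73.5%). All 6 regions were higher in bagged skin. These sites were named after their values were seen.

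In size the members were close to the rest of their contexts. The median absolute difference was 23.9 points for CG members against 23.2 for all CG regions on chromosomes, and 24.4 points for CHG members against 23.7. Their median lengths, 96.5 and 91.5 bp, were near the 93 and 94 bp of all. Their CHH partners were longer than CHH regions in general, with medians of 156 bp for CG and 162 bp for CHG against 121 bp, and an overlap rule picks long regions more readily. The partners differed by a median of 12.3 and 11.8 points, against 11.8 for all CHH regions. Within a pair, the CHH difference was a median of 0.52 times that of a CG member and 0.50 times that of a CHG member, and it was the larger one in 13 of 170 and 7 of 163 pairs.

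The nearest comparison was with CG and CHG regions that overlap both remaining contexts. Where a CG region also overlapped a CHG region, 55 of 57 CG and CHH pairs had the same direction (96.5%, interval 87.9 to 99.6), against 134 of 170 in the members. For a lower CG region the CHH region was lower in 17 of 19 such pairs (89.5%, 66.9 to 98.7) and in 45 of 80 member pairs (56.3%, 44.7 to 67.3). These CG intervals overlap narrowly, from 66.9 to 67.3%. For CHG the counts were 14 of 16 with and 35 of 45 without a CG region, also with intervals that overlap. The set without CHG thus held 35 of the 37 opposite pairs of a lower CG and a higher CHH region on chromosomes. It also held most of the pairs with a lower CG region, 80 against 19. The CG regions that overlap both CHG and CHH were also longer, with medians of 136.5 bp and 18 cytosines against 96.5 bp and 11 for CG members. More of them were higher in bagged skin, 66.1% against 52.9%. These differences were not tested, nor was the part that length or direction has in them.

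Members were found on every chromosome. They made up from 4.55% of the CG regions on chromosome 14 (4 of 88) to 15.4% on chromosome 9 (14 of 91), and from 3.74% of the CHG regions on chromosome 12 (4 of 107) to 15.9% on chromosome 1 (10 of 63). Opposite pairs in CG context were 5 of 9 on chromosome 1 and 5 of 8 on chromosome 6, and none was found among the 7 on chromosome 7 and the 4 on chromosome 14. With so few pairs per chromosome no order is read from these counts. Genes, transposons and the DNA sequence at these positions were not analysed here.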

How the data were processed

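DNA of 3 bagged and 3 unbagged skin samples was made into bisulfite libraries (Accel-NGS Methyl-Seq), per the labels' protocols. The submitters' processing notes list Bismark 0.16.3, an aligner and methylation caller for bisulfite reads, and FastQC. The way regions were called and its limits, trimming, build and depth per sample were not given in the sources used here. The authors deposited 1 table with, per region, the mean methylation fraction of each group, their difference and an area statistic (a score of the authors' caller), length and number of cytosines. The column of unbagged means carries the sample name CG, which is not the CG context. Fractions were turned into percentages, and differences recomputed as bagged minus unbagged, which equalled the deposited ones.

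Positions are as deposited and were read as 1-based with both ends counted. Overlaps were found with Python 3.11.15 and pandas 2.3.3, and exact (Clopper-Pearson) intervals with scipy 1.17.1. The search was checked on simulated regions with planted overlaps. No test was used, because each group has 1 combined value per region. Members, lists and limits were chosen with earlier results of these data known. Named pairs are, per context and direction class, the 5 with the largest value of the smaller absolute difference, plus the pairs with the largest gain, largest loss, smallest difference, longest overlap and most partners.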

Additional observations from a re-analysis of the deposited data

How the results depend on the processing

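No paired analysis was possible because the deposited levels combine the replicates of each group; for the same reason no replicate could be left out. Of 86 alternative values of 14 results under 7 settings, 79 stayed within the binomial interval of a share, the quartiles of a median or a factor of 1.5 of a number of regions. The alternatives for lower members were chosen after seeing the data. Requiring at least 50 bp shared raised the share of pairs with the same direction to 87.0% in CG and 97.6% in CHG context, and that of lower members with a lower CHH partner to 69.4% and 92.9%. The median unbagged level of lower CHG regions with a higher partner became 85.5%, over 2 pairs. With at least 10 cytosines in both regions, 96 CG and 63 CHG members were left, which follows from the stricter limit. The cause of the other shifts was not tested. Over all settings the share with the same direction ranged from 77.1 to 87.0% in CG and from 92.4 to 97.6% in CHG context. Lower CG regions had a median unbagged level of 41.1 to 44.9% with a lower and 69.1 to 78.4% with a higher CHH partner. Read depth is unknown, so the error of a single level, above all in regions of 4 to 9 cytosines, cannot be given.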

Other observations

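On unplaced scaffolds, which the rule leaves out, 3 more pairs met the same conditions, and each had the same direction in both contexts. A CG region on scaffold_256 from 1060986 to 1061037 was at 75.1% in unbagged and 87.8% in bagged skin, on CHH levels of 2.30% and 6.91%. On scaffold_186 a CHG region from 41456 to 41622 was at 48.1% and 69.7%, and its CHH partner at 3.36% and 9.92%. The third pair was a joint loss in CG (56.3% and 18.8%) and CHH context (16.4% and 3.52%).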
